A study of Homo sapiens with 8 samples.

Results

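Binding of the transcription factor p63 was examined around 7 genes of the forkhead family, FOXK1, FOXK2, FOXM1, FOXE1, FOXQ1, FOXC1 and FOXO3, in CAL27 and SCC13. Both are established human squamous cell carcinoma lines, CAL27 from the tongue and SCC13 from facial skin. Each locus was a fixed window of hg19 between 200 and 330 kb wide, and a listed p63 region was counted in it when its midpoint fell inside. The windows held 27 of the 15267 regions listed in either line. They held 24 of the 13829 CAL27 regions and 9 of the 5886 SCC13 regions, and 6 regions stood in both lists. All cells were wild type and untreated; CAL27 was grown with serum and SCC13 in a keratinocyte medium with pituitary extract and EGF, so line and medium cannot be told apart. Chromatin immunoprecipitation and sequencing had 2 p63 samples per line, but each line has 1 list, so no spread between replicates could be computed. The lists give positions only, and the depth behind them is unknown. A region missing from a list is therefore not shown to be unbound.

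The protein p63 is encoded by TP63, belongs to the p53 family and maintains the basal layer of stratified epithelia. It binds pairs of sites built around the letters CNNG and occupies many enhancers of keratinocytes and squamous tumours. Forkhead factors bind DNA through a winged-helix domain, and many recognise sites around the core TAAACA. FOXK1 and FOXK2 are close paralogs that also carry a forkhead-associated domain, and they are known as regulators of autophagy and glycolysis genes. The title of the series names FOXK1 as a cofactor recruited by p63. The windows ask a separate question, which is where p63 itself was listed around the genes of FOXK1 and its relatives.

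Promoter sequences are shown for FOXK1 and FOXK2, because these paralogs are the genes closest to the title of the series. They are RefSeq sequences of GRCh38.p14, given 5′ to 3′ as the 250 bases before the start of the gene on the plus strand, at chr7:4682045-4682294 for FOXK1 and chr17:82519482-82519731 for FOXK2. These positions belong to another build than the p63 regions and cannot be compared with them. Whether a p63 region covers either promoter was not determined. Capitals mark each CNNG that has a second one before or after a spacing of 6 bases of any kind, a pattern that reads the same on both strands, and such pairs may overlap.
FOXK1: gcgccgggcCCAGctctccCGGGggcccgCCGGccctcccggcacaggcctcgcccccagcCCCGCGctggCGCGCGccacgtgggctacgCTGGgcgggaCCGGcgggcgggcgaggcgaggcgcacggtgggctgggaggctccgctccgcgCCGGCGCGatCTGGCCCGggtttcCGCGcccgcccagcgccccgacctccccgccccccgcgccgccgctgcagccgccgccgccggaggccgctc
FOXK2: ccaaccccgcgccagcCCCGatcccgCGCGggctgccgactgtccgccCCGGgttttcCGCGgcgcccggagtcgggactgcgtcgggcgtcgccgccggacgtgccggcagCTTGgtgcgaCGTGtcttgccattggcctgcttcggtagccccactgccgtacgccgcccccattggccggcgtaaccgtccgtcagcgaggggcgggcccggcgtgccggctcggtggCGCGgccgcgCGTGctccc

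The paired CNNG is a loose pattern that most promoters hold. In the 250 bases shown, FOXK1 held 8 pairs and FOXK2 held 4. Over promoter windows of 300 bases, which run 50 bases past the start, FOXK1 held 10 pairs, more than 98.5% of all 35116 RefSeq promoters, and FOXK2 held 6, more than 88.3%. The median promoter held 2.00. Among the other genes, FOXQ1 held 1 pair, more than 26.0% of promoters, FOXC1 held 2 and FOXE1 held 3. The 4 promoters of FOXO3 held between 1 and 9. FOXO3 promoters 1 and 3, with 9 and 7 pairs, each held more than FOXK2 and more than 97.3% and 92.6% of promoters. FOXO3 promoters 2 and 4, with 5 and 1, held fewer than FOXK2. The content of G and C was 84.3% at FOXK1 and 79.0% at FOXK2, against a median of 58.7%, and its part in these counts was not tested. All 9 promoters found for 6 of the 7 genes had at least 1 pair, as did 74.0% of all promoters. The stricter pair with CATG in place of CNNG was in 0 of the 9 and in 0.373% of all promoters. FOXK1 and FOXK2 each had 55 CpG pairs in 300 bases, more than 99.6% of promoters, against a median of 14.0. High counts were not particular to these paralogs. FOXE1, FOXQ1 and FOXC1 had 32, 35 and 40, more than 81.1%, 85.9% and 92.4% of promoters. FOXO3 had 47, 42 and 40 in promoters 1 to 3 and 2 in promoter 4. Their content of G and C ran from 72.7% at FOXC1 to 78.3% at FOXO3 promoter 1, with 48.0% at FOXO3 promoter 4. A match describes letters only and is not a binding site. FOXM1 had no entry.

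The forkhead core TAAACA, on either strand, was in 1 of the 9 promoters, the second of 4 listed for FOXO3, and in 12.3% of all promoters. It is shown with the core in capitals, in 30 bases of GRCh38.p14 at chr6:108560672-108560701 on the plus strand, because it is the one place among these promoters where a forkhead core and a forkhead gene coincide.
FOXO3: ccgagcgaaacaTAAACAaacgcacgcaca

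Across all 7 windows, CAL27 had 24 p63 regions and SCC13 had 9, a ratio of 2.67, beside a ratio of 2.35 between the whole lists. The windows span 1.73 Mb, so that the density was 13.9 regions per Mb in CAL27 and 5.20 in SCC13. Between the first and last listed region of each chromosome the densities were 4.72 and 2.01, so the windows were 2.94 and 2.59 times as dense. All 7 windows lie in pale G-negative bands, which are rich in genes and held 6.14 CAL27 and 2.58 SCC13 regions per Mb. Against those bands the ratios were 2.26 and 2.02. The CAL27 figure rested mainly on FOXK2 and FOXC1, which held 14 of the 24 regions. Without them the CAL27 density was 8.00 per Mb, or 1.69 times that of all chromosomes, beside 6.14 per Mb in G-negative bands. In SCC13 leaving out the same pair gave 4.80 per Mb, or 2.39 times that of all chromosomes, beside 2.58 in G-negative bands.

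**Figure D1:**
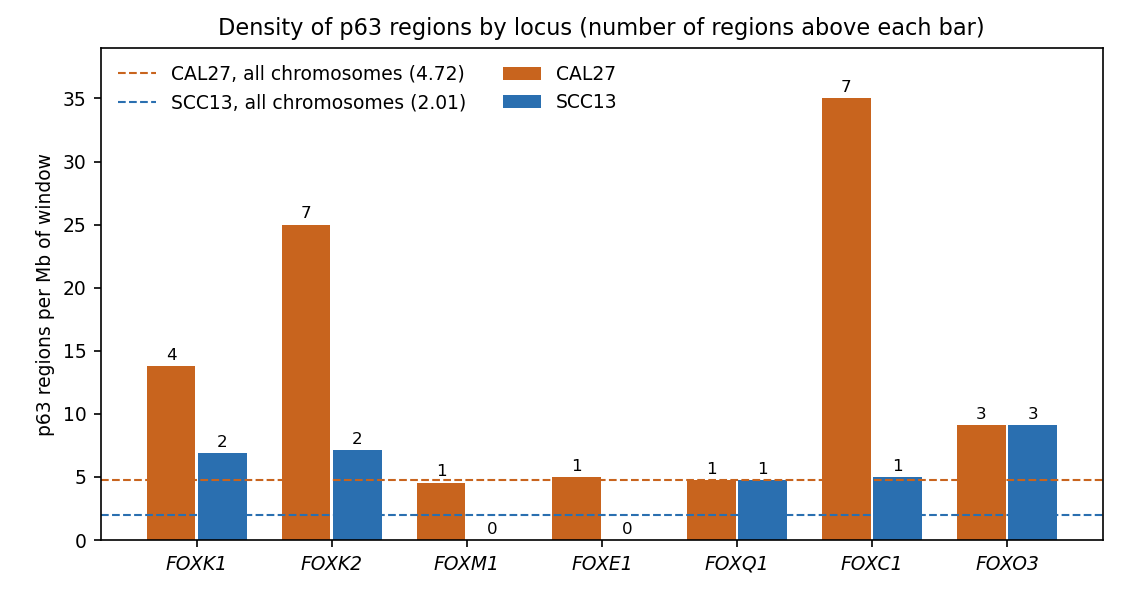
Regions of p63 per Mb of window (y axis) for each forkhead locus (x axis) in CAL27 and SCC13, with the number of regions above each bar and dashed lines at the density over all chromosomes. CAL27 bars for FOXC1 (35.0 per Mb) and FOXK2 (25.0) rise farthest above the dashed line at 4.72, while FOXM1 and FOXE1 have no SCC13 region.

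Of the 24 CAL27 regions, 6 were also SCC13 regions, or 25.0% (95% exact interval 9.77 to 46.7), beside 32.2% of the whole CAL27 list. Of the 9 SCC13 regions, the same 6 were CAL27 regions, or 66.7% (29.9 to 92.5), beside 75.6% of the whole SCC13 list. Both shares lay within counting error of the whole list. Sharing around the forkhead genes was thus not distinguishable from that of other p63 regions at these numbers. The intervals take the regions as independent, though 14 of the 24 lie at FOXK2 and FOXC1. The 6 regions lay at 5 of the 7 loci, 1 each at FOXK1, FOXK2, FOXQ1 and FOXC1 and 2 at FOXO3. Each had the same start and end in both lists, and so did all 4448 regions that the lists have in common. Whether the authors found regions on merged data is not given in the sources used here, so a shared region and its width may not be separate measurements in each line.

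**Figure D2:**
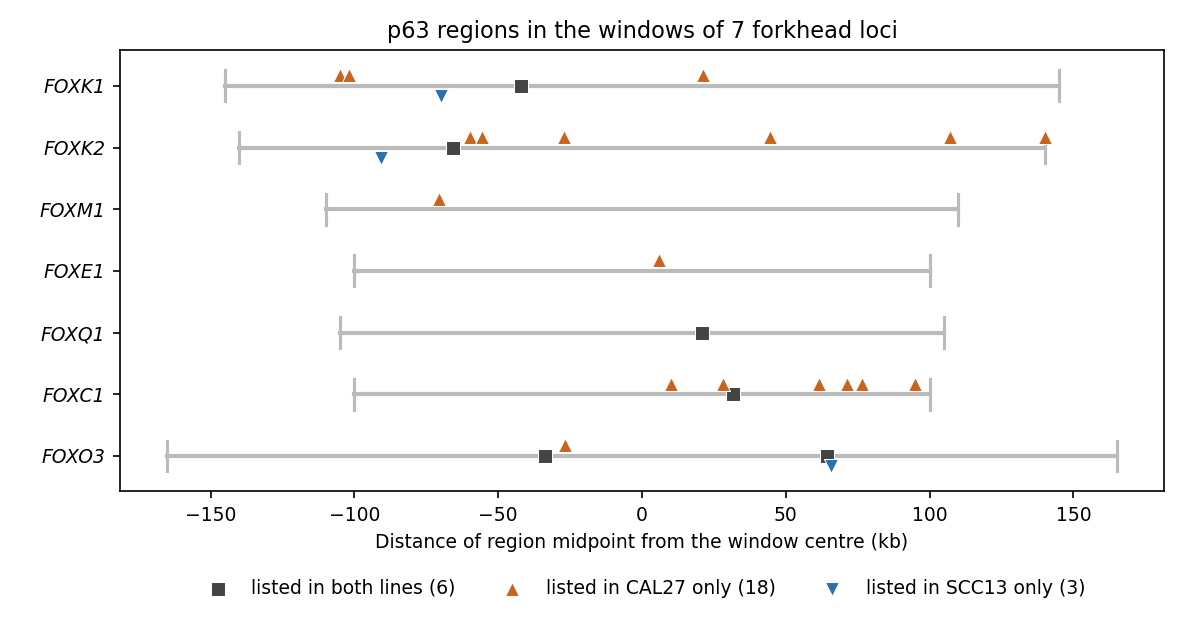
Position of each of the 27 regions as the distance of its midpoint from the centre of its window (x axis, kb), 1 row per locus; grey bars span the windows, squares are regions listed in both lines, and triangles, drawn just above or below the bar for legibility, are regions of CAL27 only (up) or SCC13 only (down). The 7 CAL27 regions at FOXC1 all lie right of the centre, and at FOXK2 3 CAL27 regions crowd between 65.8 and 55.6 kb left of it.

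FOXK1, on chromosome 7 in band 7p22.1, had 5 regions in its window at 4.62 to 4.91 Mb, 4 in CAL27 and 2 in SCC13. The region listed in both lines was chr7:4722694-4723452, 759 bp wide, and lay 41.9 kb below the centre of the window. It was the narrowest of the 6 shared regions, at or above 45.9% of CAL27 widths and 37.5% of SCC13 widths. CAL27 alone had a pair at chr7:4659871-4660709 (839 bp) and chr7:4662634-4663387 (754 bp), separated by 1924 bp. CAL27 alone also had chr7:4785696-4786905, with 1210 bp the widest at this locus. SCC13 alone had chr7:4694729-4695391 (663 bp), which stood 27.3 kb from the nearest CAL27 region. Both lines thus had p63 regions around FOXK1, with 1 position in common and 4 that differed. Among 10090 tiles of 290 kb, 11.6% held at least 4 CAL27 regions and 13.5% held at least 2 SCC13 regions, so neither count was rare. In RefSeq's order of protein-coding genes, FOXK1 lies between LOC124901580 and AP5Z1, which encodes an adaptor protein subunit, and the regions are not assigned to any of them.

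FOXK2, on chromosome 17 in band 17q25.3, had the most regions of the 7 loci, 8 at 80.38 to 80.66 Mb, of which 7 were in CAL27 and 2 in SCC13. The region in both lines, chr17:80453165-80455207, was 2043 bp wide, the widest of all 27, and at or above 99.0% of CAL27 and 98.6% of SCC13 widths. In CAL27 it opened a group of 3 neighbours within 11.9 kb, with chr17:80459749-80460674 (926 bp) and chr17:80463844-80465051 (1208 bp), and neither of these was listed in SCC13. The other CAL27 regions were chr17:80492063-80493511 (1449 bp), chr17:80563962-80564910 (949 bp), chr17:80626310-80627262 (953 bp) and chr17:80659593-80660107 (515 bp). The last of them has its midpoint 150 bp inside the end of the window and is the region nearest to any edge. SCC13 alone had chr17:80428903-80429318, with 416 bp the narrowest of all 27 and wider than or equal to only 4.42% of the SCC13 list. FOXK2 thus joined the widest shared region of these loci to a run of CAL27 regions absent from the SCC13 list. The gene lies between NARF and WDR45B in RefSeq's order.

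The CAL27 count at FOXK2 was uncommon for a stretch of that width and the SCC13 count was not. Of 10451 tiles of 280 kb, 1.66% held at least 7 CAL27 regions and 13.1% held at least 2 SCC13 regions; among tiles with any region of the line these shares were 2.97% and 35.9%. Tiles with exactly 7 CAL27 regions numbered 76, and their median SCC13 count was 3.00, from 0 to 6. Of these tiles, 43.4% had 2 SCC13 regions or fewer, so that the SCC13 count at FOXK2 lay within the usual range of equally dense CAL27 stretches. CAL27 regions covered 2.87% of the window and SCC13 regions 0.878%. At FOXK1 the shares were 1.23% and 0.490%. The difference between the paralogs was not tested, since each line has 1 list. Counts also depended on the windows: narrowed by 50 kb on each side, the FOXK1 window held 2 CAL27 regions in place of 4, and widened by 100 kb, the FOXK2 window held 11 CAL27 and 5 SCC13 regions.

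FOXO3 and FOXM1 are forkhead factors with opposed roles in proliferation. FOXO3 is held out of the nucleus by AKT signalling and promotes arrest and stress resistance, and FOXM1 drives genes of mitosis. FOXO3, on chromosome 6 in band 6q21, had 4 regions at 108.78 to 109.11 Mb, 3 in each line, and was the only locus of the 7 with 2 regions in both lists. These were chr6:108910425-108911927 (1503 bp, at or above 94.2% of CAL27 and 91.7% of SCC13 widths) and chr6:109008692-109009852 (1161 bp). Each had a close neighbour in 1 line. CAL27 alone had chr6:108917936-108918528 (593 bp), 6008 bp from the first, and SCC13 alone had chr6:109010557-109011038 (482 bp), 704 bp from the second. The SCC13 count was the least common of its 7: 5.90% of 8866 tiles of 330 kb held at least 3 SCC13 regions, and 23.4% held at least 3 CAL27 regions. Among tiles with any SCC13 region the first share was 14.4%. FOXO3 lies between AFG1L and ARMC2.

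FOXM1, on chromosome 12 in band 12p13.33, had 1 region at 2.87 to 3.09 Mb, in CAL27 only. It was chr12:2909109-2909669, 561 bp wide, and its nearest SCC13 region was 319 kb away. This was the largest such distance of the 21 regions listed in 1 line. A window of 220 kb with no SCC13 region was the common case, at 69.3% of 13305 tiles, and 63.4% of the 3087 tiles with 1 CAL27 region had none. The gene lies between TEX52 and RHNO1.

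The other 3 genes, FOXE1, FOXQ1 and FOXC1, act in development. FOXE1 is needed for the thyroid and the palate and is expressed in hair follicles. It lies on chromosome 9 in band 9q22.33, between XPA and TRMO, and had 1 CAL27 region at 100.52 to 100.72 Mb, chr9:100625447-100626182. This region was 736 bp wide, lay 5.81 kb above the centre of the window and was 298 kb from the nearest SCC13 region. FOXE1 and FOXM1 were the only loci of the 7 with no SCC13 region, and 71.2% of 14636 tiles of 200 kb also had none.

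FOXQ1, which is needed for normal hair shafts and is studied in carcinoma cells as a factor of epithelial plasticity, had a single region, and both lines listed it. It was chr6:1335305-1336277 in band 6p25.3, 973 bp wide, at or above 69.6% of CAL27 and 62.7% of SCC13 widths. FOXQ1 was the only locus of the 7 with no region of 1 line alone inside its window, which depends on the edges: CAL27-only regions lay 14.7 kb above and 33.6 kb below them, and with 100 kb added on each side the window held 4 CAL27 regions in place of 1. Tiles of 210 kb with at least 1 SCC13 region made up 29.8% of 13939, and those with at least 1 CAL27 region 48.5%.

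FOXC1, a factor of eye development that also keeps hair follicle stem cells quiescent, lies in the same band 6p25.3, between FOXF2 and GMDS. Its window at 1.51 to 1.71 Mb held 7 CAL27 regions and 1 SCC13 region, and the SCC13 region, chr6:1641061-1642117 (1057 bp), was one of the 7. CAL27 alone had chr6:1619418-1620414 (997 bp), chr6:1637623-1638616 (994 bp), chr6:1670993-1671775 (783 bp), chr6:1680819-1681727 (909 bp), chr6:1686287-1686789 (503 bp) and chr6:1704564-1705446 (883 bp). All 7 lay above the centre of the window, the closest at 9.92 kb, so that the window narrowed by 50 kb on each side held 3 of them. They formed a pair within 4.50 kb that included the shared region, a group of 3 within 15.8 kb that had no shared member, and 2 single regions.

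FOXC1 was the densest of the 7 loci in CAL27, with 35.0 regions per Mb, and had 5.00 per Mb in SCC13. Of 14636 tiles of 200 kb, 96, or 0.656%, held at least 7 CAL27 regions, and 28.8% held at least 1 SCC13 region. Among tiles with any CAL27 region the first share was 1.39%. The 50 tiles with exactly 7 CAL27 regions had a median of 2.50 SCC13 regions, from 0 to 6, and 14.0% of them had 1 or none. FOXC1 thus stood toward the low end of SCC13 counts for its CAL27 count, without being outside their range. With neighbours within 12.5 kb counted once, its 7 CAL27 regions became 4.

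**Figure D3:**
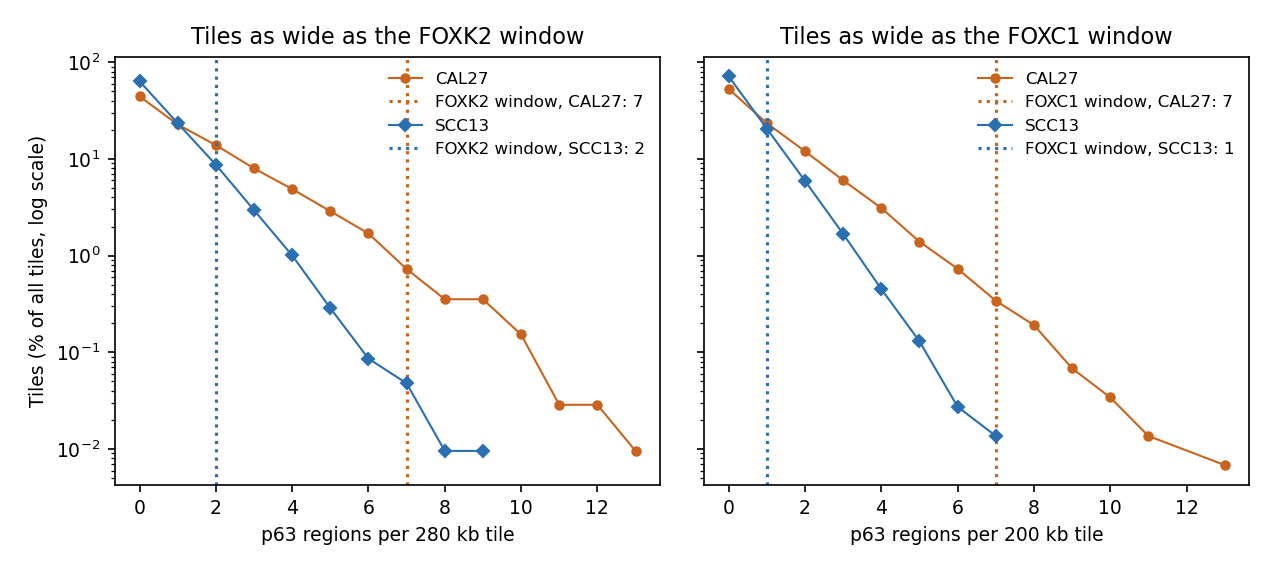
Percentage of tiles (y axis, log scale) by the number of p63 regions they hold (x axis) for tiles of 280 kb, as wide as the FOXK2 window (left), and of 200 kb, as wide as the FOXC1 window (right), in CAL27 and SCC13; numbers of regions that no tile holds are not drawn. Dotted lines mark the counts of the windows: 7 CAL27 regions at both loci lie in the thin end of the distribution, and 2 (FOXK2) and 1 (FOXC1) SCC13 regions lie near its bulk.

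Around the forkhead genes, regions listed in both lines had the largest median width and those of SCC13 alone the smallest, the same order as in the whole lists. The 6 shared regions were 759 to 2043 bp wide with a median of 1109 bp, beside 934 bp for all 4448 shared regions. The 18 CAL27-only regions were 503 to 1449 bp wide with a median of 896 bp, beside 723 bp for all 9381. The 3 SCC13-only regions, 1 each at FOXK1, FOXK2 and FOXO3, were 663, 416 and 482 bp wide, beside a median of 590 bp for all 1438. The classes overlapped: the shared FOXK1 region of 759 bp was narrower than 12 of the 18 CAL27-only regions, and the 1449 bp CAL27-only region at FOXK2 was wider than 4 of the 6 shared ones. Width is set by the authors' region finding and is not a measure of binding strength. Since shared regions have 1 common pair of ends, any part that joint region finding had in their greater width was not tested.

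**Figure D4:**
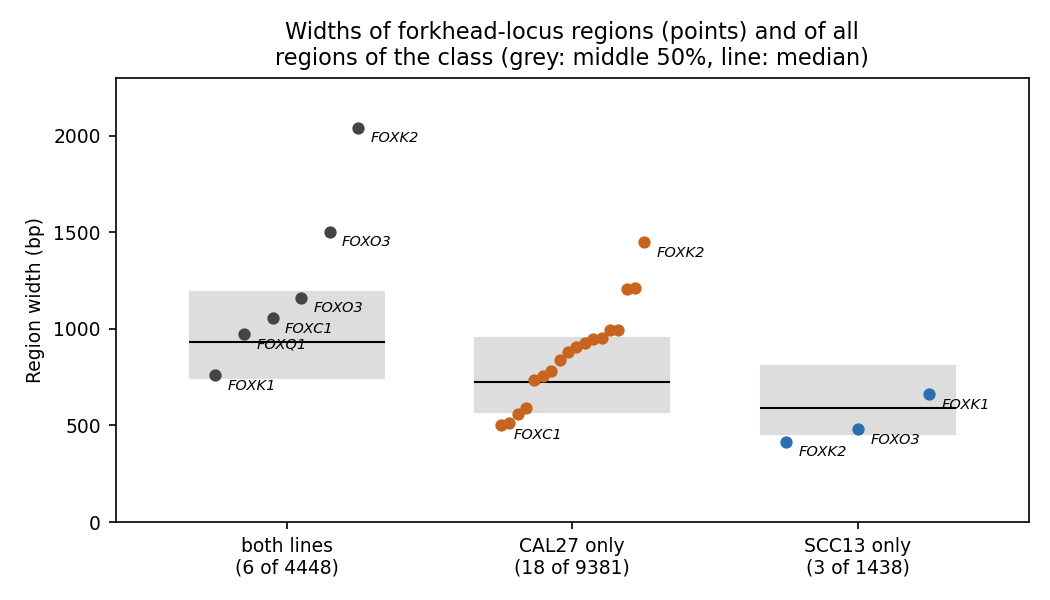
Width of each forkhead-locus region in bp (y axis, points) by the list or lists that hold it (x axis), over the middle 50% (grey) and the median (line) of all regions of the class. The shared FOXK2 region of 2043 bp stands above the rest, and the 3 SCC13-only regions, at 416 to 663 bp, lie below all 6 shared regions; 4 CAL27-only regions are narrower than the widest of them.

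Most regions listed in 1 line lay near a region of the other line. For the 18 CAL27-only regions the median distance to the nearest SCC13 region was 35.4 kb, beside 109 kb for all 9381 CAL27-only regions, and 13 of the 18 (72.2%) had one within 50 kb, beside 30.8%. The 3 SCC13-only regions stood 704 bp, 23.8 kb and 27.3 kb from a CAL27 region, beside a median of 77.9 kb for all 1438. The 18 regions are not independent, since 12 of them belong to FOXK2 and FOXC1 and were measured mostly to the few SCC13 regions in or near those windows. At FOXC1 all 6 had an SCC13 region within 42.8 kb, and at FOXK2 the distances ran from 4.54 to 109 kb. The windows were also 2.94 (CAL27) and 2.59 (SCC13) times as dense in regions as all chromosomes. The part of this density in the short distances was not tested.

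**Figure D5:**
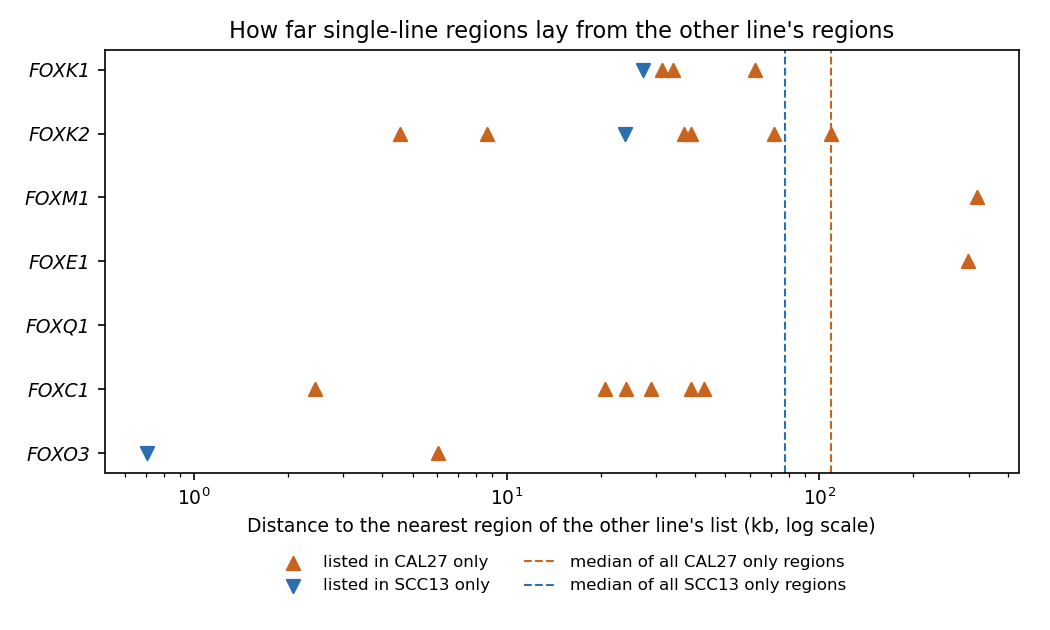
Distance from each region listed in 1 line to the nearest region of the other line's list (x axis, kb, log scale) by locus (rows), with dashed lines at the median of all CAL27-only and all SCC13-only regions. The FOXM1 and FOXE1 regions, at 319 and 298 kb, lie apart from the others, which reach 109 kb; FOXQ1 has no such region.

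Crowding of p63 regions differed between the loci. In CAL27, 12 of the 24 regions (50.0%) had a neighbour within 12.5 kb, beside 25.2% of the whole list. They formed 5 groups, 2 at FOXC1 and 1 each at FOXK1, FOXK2 and FOXO3. Most of the 12 lay at FOXK2 and FOXC1. The largest groups held 3 regions, at FOXK2 and at FOXC1, and the whole CAL27 list had 309 groups of 3 or more. In SCC13, 2 of the 9 regions (22.2%) had such a neighbour, both at FOXO3, beside 12.3% of the whole list. Since the windows were 2.94 (CAL27) and 2.59 (SCC13) times as dense as all chromosomes, crowding is not separate from density here. The part of density in these shares was not tested. FOXM1, FOXE1 and FOXQ1 had single regions only.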

How the data were processed

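Chromatin of CAL27 and SCC13 cells was immunoprecipitated for p63 in 2 samples per line; 2 further samples per line are titled none. Tools named in the submitters' processing notes are Bowtie2, SAMtools 1.8 and MACS2, with the build hg19. The authors deposited 1 list per line, each with 3 columns (chromosome, start, end) and no score, height or summit, and per the labels it belongs to both p63 samples. How regions were thresholded and what part the samples titled none played is not given in the sources used here.

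Regions overlapping by at least 1 bp counted as listed in both lines. Neighbours were joined when midpoints lay within 12.5 kb. Each chromosome was also divided, from its first to its last listed region, into tiles as wide as each window; such tiles include assembly gaps and take no account of gene content. The 7 loci and the comparisons were chosen with earlier results of these data known. The naming rule took all 7 genes, every region of FOXK1 and FOXK2, and elsewhere the regions in both lines, the widest and the largest group of neighbours; the few others are given too. With 1 list per line and chosen loci, no test was run and no p-value is given. Shares carry exact Clopper-Pearson 95% intervals, which cover counting error only. Windows, membership, width, joining and tile rules were varied as alternatives; a stricter overlap rule could change nothing, since overlapping regions are identical in both lists.

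Bands of hg19 came from a table in circlize 0.4.16 (R 4.3.3). Promoter sequences and gene order came from RefSeq (GRCh38.p14). Gene positions, exons and introns in hg19, and the sequences of the regions, were not analysed here, nor were the forkhead proteins. Python 3.11.15, numpy 2.4.6, scipy 1.17.1 and matplotlib 3.10.9 were used, and the counting functions were tested on simulated data.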

Additional observations from a re-analysis of the deposited data

How the results depend on the processing

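No paired analysis was possible because each line has 1 list for its 2 numbered replicates, and leaving out a replicate could not be done either. The CAL27 total of 24 regions was 15 with windows narrowed by 50 kb on each side. The SCC13 total of 9 was 14 with windows widened by 100 kb and 5 with only the regions at least as wide as their list's median; in that last setting 100% of the SCC13 regions were also CAL27 regions, in place of 66.7%. The 12 CAL27 regions with a close neighbour became 6 when midpoints had to lie within 5 kb. The share of the whole CAL27 list fell as well. At 5 kb the shares were 25.0% of the window regions and 11.6% of the list, in place of 50.0% and 25.2%. With midpoints within 25 kb they were 58.3% and 40.5%, a smaller excess in proportion. The 3 SCC13-only regions, 416 to 663 bp wide, all fell below the SCC13 median of 862 bp, so the width limit removed them. The share of the whole SCC13 list under that width limit is not given here. The other 37 alternative values for totals, shares, densities, widths and groups, 2 of them from the overlap rule, which identical positions fix, stayed within 1.5 times the reported count or ratio, within the interval of the share, or, for widths, within 1 SD. Of 85 alternative values for single loci and promoters, 17 moved by more. Some of the rest could not move. The SCC13 counts of 0 at FOXM1 and FOXE1 cannot change with narrowed windows, the width limit or neighbours counted once. For a count of 0 the share of tiles with at least as many regions is always 100%. The comparison with G-negative bands was chosen after the data were examined. Regions have no score, so no stricter threshold was run.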

Other observations

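FOXQ1 and FOXC1 share band 6p25.3 with FOXF2, another forkhead gene that RefSeq places directly before FOXC1, and the regions around their windows were looked at after the values were known. From the start of the FOXQ1 window to 300 kb beyond the FOXC1 window, 12 regions were listed, 4 in both lines, 8 in CAL27 only and 0 in SCC13 only. Between the windows CAL27 alone had chr6:1434250-1435199 (950 bp). Beyond the FOXC1 window both lines had chr6:1729558-1730447 (890 bp), whose midpoint lay 20.0 kb past the edge, and chr6:1890003-1891005 (1003 bp), and CAL27 alone had chr6:1958329-1959012 (684 bp). All 4 SCC13 regions of this stretch were CAL27 regions, beside 75.6% of the whole SCC13 list, and 4 regions are too few to tell such shares apart. Of the 12 CAL27 regions, 4 were SCC13 regions, beside 32.2% of the whole CAL27 list. The 4 include the shared regions of the FOXQ1 and FOXC1 windows, already counted above.

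Several windows had regions just beyond their edges. CAL27 alone had a region 16.1 kb below the FOXE1 window, chr9:100503327-100504403 (1077 bp), and one 21.9 kb above the FOXM1 window, chr12:3111519-3112203 (685 bp). SCC13 alone had one 23.1 kb below the FOXO3 window, chr6:108756482-108757256 (775 bp), and one 39.3 kb above the FOXK2 window, chr17:80699002-80699665 (664 bp).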
